A study of Mus musculus with 2 samples.

Results

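The cells described here are hepatic γδ T cells caught in an interferon response. They were picked from the liver library by their own transcripts. A cell was taken when 7 interferon-induced genes, Ifit1, Ifit3, Ifit3b, Rsad2, Mx1, Cmpk2 and Usp18, together held at least 3 UMIs (unique molecular identifiers, each standing for 1 captured mRNA) and when the macrophage genes Lyz2, C1qa, C1qb and C1qc together held at most 3. Of 8075 liver cells kept after filtering, 81 met the rule, a share of 1.00% (exact binomial 95% interval 0.797% to 1.25%). The liver library held 8658 barcodes, and both libraries of the series held 13199.

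The series holds 1 library of γδ T cells from the liver and 1 from the thymus of untreated wild type C57BL/6J mice aged 8 weeks, sorted on CD3e and the γδ T cell receptor. Thymic suspensions were first depleted of CD4+ and CD8+ cells with magnetic beads. The study took its cells from several mice, how these were divided over the libraries is not given in the sources used here, and 1 library per tissue leaves no replicate against which a difference could be tested. Intervals in the text are 95% intervals that cover counting error only, so that no p-value is given.

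Type I interferons bind a receptor built from Ifnar1 and Ifnar2, whose kinases are Jak1 and Tyk2. Signalling from it brings a transcription factor complex that includes Irf9 to the interferon-stimulated response element (ISRE) and switches on antiviral genes, among them the rule genes. Interferon-γ, a cytokine that many hepatic γδ T cells make, works through another element, the gamma-activated sequence (GAS), and the gene sets overlap. Ifit proteins bind viral RNA, Rsad2 (viperin) makes a chain-terminating nucleotide, Cmpk2 is a mitochondrial nucleotide kinase, Mx1 is a GTPase that blocks virus replication and Usp18 removes Isg15 from proteins and damps the receptor.

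Promoter stretches of 60 bases are shown for genes whose levels carry the results below, Ifit1 from the rule and 5 genes outside it, because each holds the letters searched as an ISRE. The search used the letters GAAA, any 2 bases and GAAA again on both strands, so that a match on the other strand reads TTTC, 2 bases and TTTC, over windows from 250 bases before to 50 bases after the RefSeq start of each gene. Sequences are from RefSeq on GRCm38.p6, 5′ to 3′ on the strand of the gene, and capitals mark every full match within the stretch, overlapping matches run together.
Ifit1, chr19:34640760-34640819, plus strand: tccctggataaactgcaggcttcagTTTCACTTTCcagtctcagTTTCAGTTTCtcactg
Isg15, chr4:156200862-156200921, minus strand: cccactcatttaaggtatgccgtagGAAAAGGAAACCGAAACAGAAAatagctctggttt
Bst2, chr8:71537568-71537627, minus strand: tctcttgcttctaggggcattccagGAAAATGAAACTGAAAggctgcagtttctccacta
Ddx60, chr8:61928009-61928068, plus strand: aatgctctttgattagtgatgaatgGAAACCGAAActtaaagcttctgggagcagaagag
Gbp7, chr3:142530258-142530317, plus strand: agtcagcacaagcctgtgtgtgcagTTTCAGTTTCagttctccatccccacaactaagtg
Cxcl10, chr5:92349068-92349127, minus strand: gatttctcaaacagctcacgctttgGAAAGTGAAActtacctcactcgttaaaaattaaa
All 6 stretches lie upstream of the RefSeq start. The Isg15 window held 3 overlapping matches and Ifit1, Bst2 and Ddx60 held 2 each.

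The members were close to the other cells in depth. They had a median of 2955 UMIs per cell (1722 to 6739) and the other 7994 kept cells 2739. Detected genes were 1184 against 1130 at the median, and mitochondrial UMIs 1.85% against 1.93%. Of the 81 cells, 1 lay among the highest 7% of Scrublet doublet scores. Scrublet's calling had not worked on this library, so that doublets among the members cannot be judged from these scores. The libraries shared 60 barcode sequences.

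The rule itself was met by different genes in different cells. Ifit1 gave 196 UMIs over 65 of the 81 cells and Ifit3 178 UMIs over 63, while Usp18 gave 71, Rsad2 59, Ifit3b 39, Mx1 32 and Cmpk2 31. Ifit3 and Ifit3b are near-identical copies whose reads cannot be assigned with certainty. Cells with 3 of the 7 genes detected were the most frequent, with 23 cells, 9 cells had 1 gene only and 3 cells had all 7. The count per member ran from 3 to 37 UMIs with a median of 5. The 21 cells with at least 10 held 54.0% of all rule UMIs. Just inside the threshold stood 22 cells with 3 UMIs and just outside it 105 cells with 2, both within the limit on macrophage genes.

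A further 12 kept cells reached 3 rule UMIs but held more than 3 UMIs of Lyz2 and the C1q genes, and all 12 lay in the C8-like cluster of macrophage-like cells. They are not counted here.

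The members were T cells by their defining transcripts. Cd3g was detected in 79 of the 81 cells, Cd3d in 78 and Cd3e in 70. Summed over 8 T cell genes, the level was 5764 CPM (counts per 1000000 UMIs, from UMIs summed over the cells of a group; 5479 to 6061) against 5948 in the other cells. Hepatocyte and endothelial markers had no UMI in the members, with 0 of 6 and 0 of 5 genes detected. The upper limit on each 0 is 13.9 CPM, above the 7.45 and 3.39 CPM of the other cells, so that the 0 says little. B cell markers stood at 11.3 CPM (2.34 to 33.1), all of it 3 Cd79b UMIs in 1 cell. Siglech and Ly6d, which mark plasmacytoid dendritic cells, the professional producers of type I interferon, were at 0. The whole list of 6 plasmacytoid genes reached 695 CPM (598 to 803) against 207, of which Bst2, itself interferon-induced, made 574 against 112. Of 16 myeloid and Kupffer genes beside the 4 used by the rule, 8 were at 0, and their sum was 215 CPM (163 to 279) against 911, a difference that the limit on macrophage genes in part fixes. Their part in the results was not tested.

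The interferon-response cells were spread over the effector types when interferon-related genes were kept out of the clustering. The liver cells were clustered without those genes. Clusters were named by listed markers, after classes of the study or, outside these, as cycling or B cell. C4-like cells, marked by Socs2, Cd28, Cd40lg and Il4, gave 26 of the 81, or 32.1% (22.2% to 43.4%), against 23.2% of the other kept cells. At a coarser clustering resolution of 0.4 the C4-like class held 53.1% of the members. The share of the other cells in the class at that resolution was not computed, so that no preference can be read from it. C5-like cells, with Gzmb, Ccl3, Ccl4 and Ncr1, gave 18, or 22.2%, against 28.8%. Another 18 came from cluster 2, which was left without a name and was led by Lilr4b, Lilrb4a, Cd160 and Klrc1. C3-like cells, with the precursor genes Tcf7, Lef1, S1pr1 and Ccr7, gave 13.

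Seen from the classes, 1.39% of the C4-like cells met the rule (0.907% to 2.02%), 1.19% of cluster 2 (0.707% to 1.87%), 1.17% of the C3-like (0.622% to 1.99%), 1.37% of the C7-like cells with Klrg1, S1pr5 and Gzmk (0.374% to 3.47%, 4 cells), and 0.775% of the C5-like (0.460% to 1.22%). These intervals overlap. C6-like cells, the Il17a and Il17f expressers, held 2 members of 789 cells, or 0.253% (0.0307% to 0.913%). They made 2.47% of the members (0.300% to 8.64%) against 9.84% of the other cells (9.20% to 10.5%), intervals that do not overlap. The interval of the 0.253% still touches that of the C4-like class. Whether the classes differ in these shares was not tested. No member was cycling (0 of 45 cells, which allows a share of up to 6.67% at a floor of 3 counts) or B cell-like (0 of 15). The 105 C8-like cells gave none, after the limit on macrophage genes had set 12 of them aside, and 27.6% of them held a rule UMI. Where the response was fullest, with 10 or more rule UMIs, 10 of the 21 cells were C4-like, 4 C3-like, 4 in cluster 2 and 3 C5-like.

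**Figure D1:**
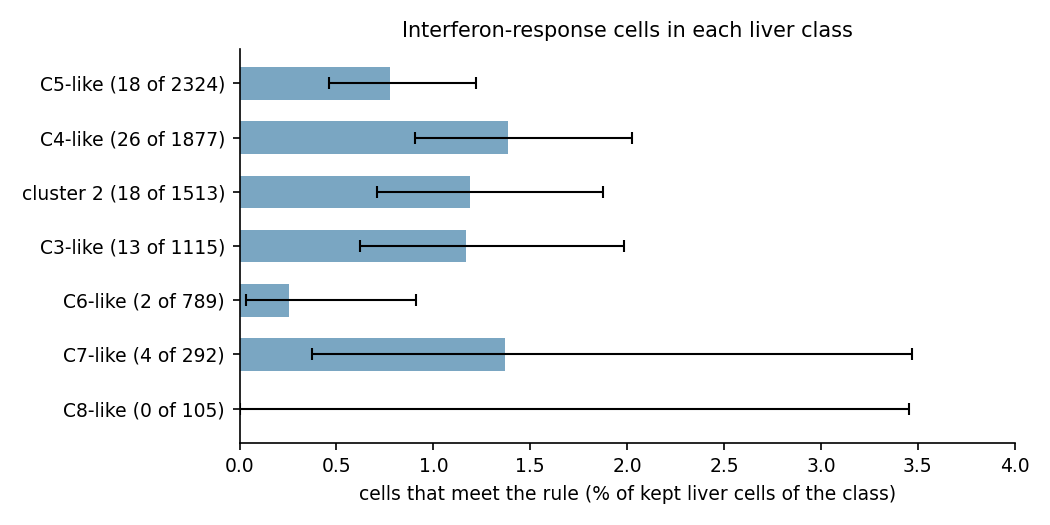
Share of the kept liver cells of each class that met the rule (bars, % of the class) with exact binomial 95% intervals; members and cells of each class are given beside its name, for classes of at least 100 cells. C6-like cells had the lowest share of the classes with any member, 2 of 789, and all intervals overlap.

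When the interferon-related genes were left among the variable genes instead, a cluster of 69 cells appeared that held 49 of the 81 members, 71.0% of the cluster. By the first clustering, these 49 were 15 C4-like, 15 C5-like, 11 of cluster 2, 6 C3-like and 2 C7-like cells. Outside the cluster, C4-like cells then held 12.3% of the members, C3-like 8.64% and C5-like 3.70%. It held 20 of the 21 cells with at least 10 rule UMIs, and of the 32 members outside it 26 had 3 or 4.

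Gene levels outside the rule were compared between the 81 cells and the other 7994 as a ratio of CPM. Because Ifit and Mx genes chose the cells and are induced together with the genes below, higher levels of the latter follow in part from the choice and carry no test. Over 6455 genes with at least 250 UMIs in the kept cells, 189 were at least 2-fold higher in the members (2.93%) and 627 at least 2-fold lower (9.71%). A gene at the limit of 250 UMIs is expected to give 2.74 UMIs in the members, so that counting alone moves many low genes, and genes called lower had a median of 2 member UMIs. Among the 2730 genes with at least 1000 UMIs, 42 were higher (1.54%) and 70 lower (2.56%).

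Listed interferon-related genes outside the rule were higher far more often than that. Of 77 compared, 47 were at least 2-fold higher and 1, Ifitm2, at least 2-fold lower with 3 UMIs, with a median log2 ratio of 1.62 against -0.08 over all genes. Without the class I presentation genes 46 of 59 were higher, and the summed level of the 90 such genes in the table was 3.48 times that of the other cells (3.37 to 3.59). Per cell, that sum ran from 3356 CPM through a median of 13015 to 54079 in the members and from 0 through 3814 to 41807 in the others. In 80 of the 81 cells it lay above the median of the others and in 36 above their 99th percentile of 13799. The groups overlapped, and 94 of the other cells lay above the members' median.

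**Figure D2:**
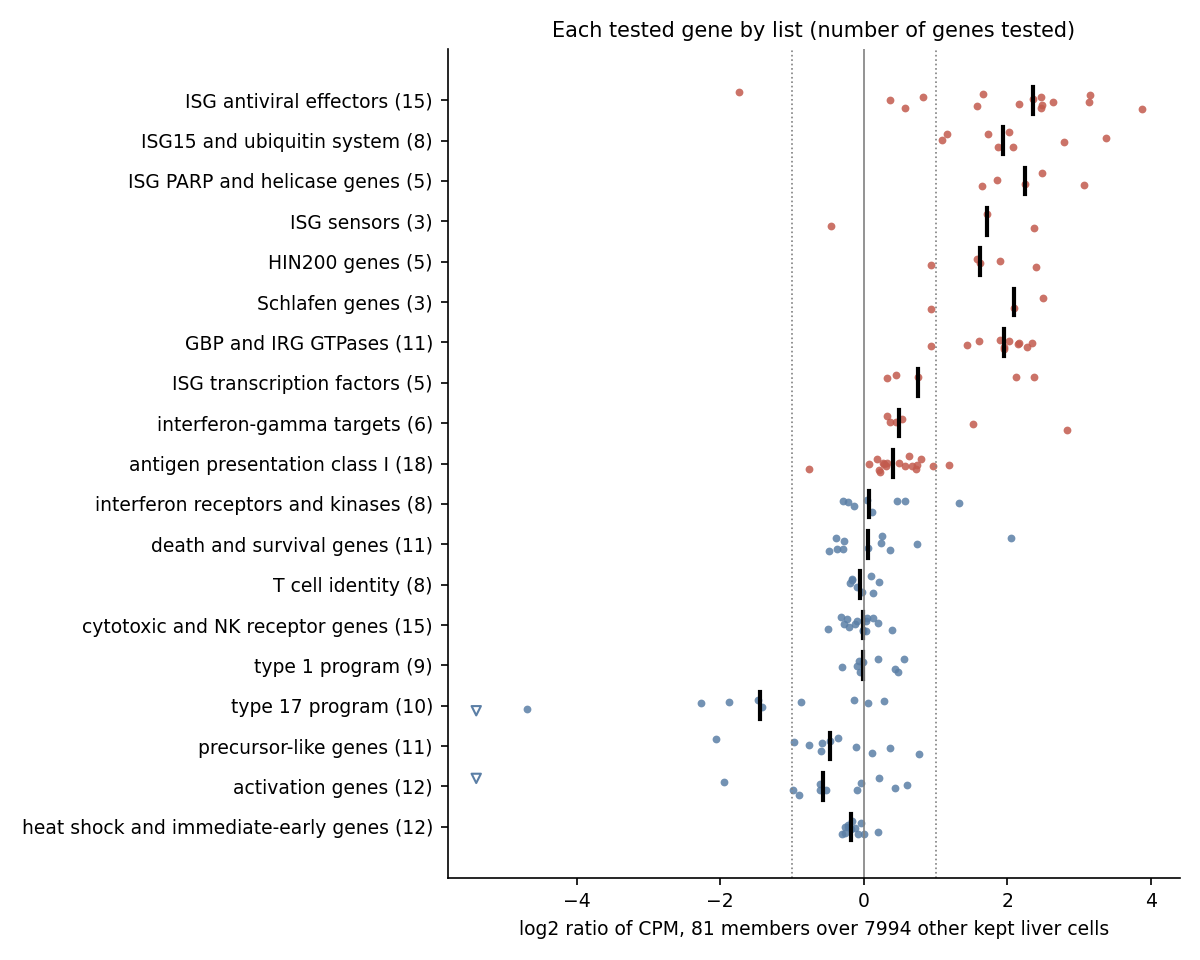
Log2 ratio of CPM, 81 members over 7994 other kept liver cells, for each gene compared (points; red, interferon-related lists; blue, other lists), with the median of each list as a black bar; open triangles are Il17f and Ctla4, with 0 UMIs in the members, and dotted lines mark 2-fold. The upper 7 lists have medians from 1.62 to 2.36, class I presentation 0.41, and cytotoxic genes -0.02.

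Antiviral effectors had the highest median of the lists. Of 15 compared, 11 were at least 2-fold higher, with a median log2 ratio of 2.36. Isg20, an exonuclease that degrades single-stranded RNA, had the largest ratio of the genes compared with at least 50 CPM, 249 against 16.9 CPM or 14.7-fold (11.2 to 19.1), from 66 UMIs in 32 cells. Bst2, which tethers budding virions to the cell, stood at 574 against 112 CPM, 5.13-fold (4.33 to 6.04), and was detected in 61 members. Rtp4 stood at 340 against 54.5 CPM, Xaf1 at 204 against 45.7, Trim30a at 294 against 53.0 and Samhd1, which depletes nucleotides, at 415 against 132. Oas1a, an oligoadenylate synthetase, was 5.51-fold higher (3.37 to 8.56). Below the limit for comparison, Ifit2 gave 31 UMIs in the members, 117 against 7.91 CPM, and Oas3 21 UMIs, 79.3 against 7.15 CPM. Apobec3 (1.49-fold) and Zc3hav1 (1.77-fold) stayed under 2-fold, and Ifitm3 was 1.29-fold with an interval of 0.812 to 1.94, and 0.740-fold without the cell that held 10 of its 23 UMIs.

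On the list of Isg15, its conjugation genes and ubiquitin system genes, all 8 compared were at least 2-fold higher. Isg15, a ubiquitin-like protein attached to other proteins, reached 1574 against 152 CPM, 10.3-fold (9.32 to 11.4). It ran from 0 through a median of 3 to 21 UMIs per member and was found in 68 of the 81, while the other cells ran from 0 through a median of 0 to 20. Herc6, the ligase that attaches it in mice, was 6.89-fold higher (4.71 to 9.78), 128 against 18.6 CPM. Trafd1, Rnf213 and Dtx3l were 4.22-fold, 4.05-fold and 3.63-fold higher, and Ube2l6 and Uba7, the conjugating and activating enzymes, 3.33-fold and 2.12-fold.

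All 5 PARP and helicase genes compared were higher. Ddx60, a cofactor of RNA sensing, stood at 83.1 against 9.96 CPM, 8.34-fold (5.13 to 12.9), from 22 UMIs. Parp9, the partner of Dtx3l, was 5.57-fold higher, Parp14 3.60-fold and Parp10 3.12-fold. Of the cytosolic sensors, Zbp1, which recognizes Z-form nucleic acid, stood at 419 against 81.0 CPM (5.17-fold, 4.23 to 6.26) and Ddx58 (RIG-I) at 102 against 31.0. Tmem173 (STING), which signals for the DNA sensor cGAS, was not higher, with 26.4 against 36.2 CPM and a ratio of 0.729 (0.292 to 1.51). Ifih1 (MDA5) and Eif2ak2 (PKR), with too few UMIs for comparison, stood at 83.1 against 7.53 and 71.7 against 8.07 CPM.

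Of the 5 HIN200 and partner genes compared 4 were higher, among them Pyhin1 at 313 against 59.3 CPM (5.28-fold) and Ifi203 at 638 against 171 (3.72-fold). The Schlafen genes, known to restrain T cell growth and virus replication, included Slfn1 at 5.64-fold (3.73 to 8.21) and Slfn8 at 4.28-fold, while Slfn2 stood at 1.90-fold. Guanylate-binding proteins and immunity-related GTPases, which attack the vacuoles of intracellular pathogens and respond to both kinds of interferon, were higher in 10 of 11, with a median log2 ratio of 1.95. Gbp7 stood at 279 against 69.0 CPM (4.05-fold, 3.16 to 5.11), Irgm1 was 4.45-fold and Igtp 3.87-fold higher, and Ifi47 was 3.05-fold higher. Gbp8 alone stayed under 2-fold, at 1.91. Gbp6, listed under several identifiers that were summed, was 4.82-fold higher.

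The transcription factors of the pathway moved unequally. Irf7, which amplifies type I interferon signalling, stood at 310 against 60.2 CPM (5.15-fold, 4.07 to 6.43). Irf9 was 1.69-fold (1.03 to 2.62), Irf1 1.37-fold (1.07 to 1.72) and Irf8 1.25-fold (0.769 to 1.91). Irf1 and Socs1 (1.44-fold, 1.07 to 1.90) belong to the 6 genes compared from the list of interferon-γ targets, which had a median log2 ratio of 0.49 and of which Cxcl10 and Cd274 (PD-L1, 2.88-fold, 16 UMIs) were at least 2-fold higher. Cxcl9 and Ciita, also on that list, had too few UMIs for comparison. They had 0 UMIs in the members, where fewer than 2.74 each would be expected at equal levels, so that the 0 says little.

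Cxcl10, a chemokine that attracts Cxcr3-bearing lymphocytes, was held by few cells. It stood at 419 against 59.2 CPM, 7.08-fold (5.78 to 8.59), but only 17 of the 81 members had a UMI and 1 of them held 27 of the 111. Without that cell the ratio was 5.42. The 13 C3-like members held 60 of the UMIs, 1545 CPM against 56.8 in the other C3-like cells.

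Class I antigen presentation was raised more evenly and less. Of 18 genes, 17 had a ratio above 1, as had 2738 of all 6455 genes compared, and 1 was at least 2-fold higher, H2-T22 at 525 against 230 CPM (2.28-fold, 1.91 to 2.70). Psmb8, a subunit of the immunoproteasome, stood at 1.74-fold (1.55 to 1.95), Tapbp (tapasin), which loads peptide, at 1.96-fold (1.60 to 2.37) and the peptide transporter Tap1 at 1.67-fold. B2m stood at 1.21-fold (1.16 to 1.26), H2-K1 at 1.16-fold and H2-D1 at 1.05-fold, with an interval of 0.988 to 1.11. The 18 genes summed to 1.23 times the level of the other cells (1.20 to 1.27).

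Of the interferon genes listed, Ifng alone was detected in the members. Ifnb1, Ifna2, Ifna4, Ifnl2, Ifnl3, Ifnk and Ifne were at 0 UMIs in the 81 cells, whose 264900 UMIs limit what could be seen, and Ifnb1 stood at 2.51 CPM in the other cells. Ifng had a UMI in 57 members and stood at 993 CPM against 717 or 1.38-fold (1.22 to 1.56). Receptor chains were near equal, with Ifnar1 at 1.03-fold (0.636 to 1.58), Ifnar2 at 1.08-fold (0.649 to 1.69) and Ifngr1 at 0.814-fold (0.661 to 0.992). Without the cell that held the most of each, Ifnar1 stood at 0.893-fold and Ifnar2 at 0.923-fold. Tyk2 stood at 2.52-fold from 8 UMIs (1.08 to 5.02), and Jak1 at 0.859-fold.

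Effector genes differed little. None of 15 cytotoxic and natural killer receptor genes reached 2-fold in either direction, with a median log2 ratio of -0.02. Nkg7 stood at 1.02-fold (0.941 to 1.10), Klrd1 at 0.916-fold and Gzma at 1.15-fold, 1.01 without the cell that held 100 of its 704 UMIs. Gzmb, which carries granule killing, stood at 1.32-fold (1.24 to 1.41). None of 9 genes of the type 1 program reached 2-fold, with Tbx21 at 1.35-fold (0.889 to 1.98), Cxcr3 at 1.15-fold and Il2rb at 0.934-fold. Of the 11 death and survival genes compared, Daxx, a regulator of apoptosis and transcription, was at least 2-fold higher, 143 against 34.6 CPM (4.14-fold, 2.91 to 5.73), while Bcl2 stood at 0.766-fold (0.597 to 0.969) and Tnfsf10 (TRAIL) at 1.17-fold (0.605 to 2.06).

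Genes of the type 17 program, which marks the C6-like cells, had lower levels. Of 10, 6 were at least 2-fold lower, with a median log2 ratio of -1.44. With counts under 3 UMIs set to 3, the median was -0.73, since several of these genes had few member UMIs. The summed level was 0.775 times that of the others (0.685 to 0.873). Cd163l1 had 1 UMI, 3.78 against 98.1 CPM, Blk 11.3 against 54.6 and Il17f 0 UMIs in the members. Of the 26 Il17a UMIs, 24 were in 1 cell, and the ratio went from 0.542 to 0.0427 without it. Of the 271 member UMIs in the type 17 sum, 159 were of Cxcr6, itself at 1.22-fold. When the other cells were weighted to the class shares of the members, the ratio of the sums was 1.10, a value that leans on Cxcr6. The 15 lowest ratios also held genes of macrophages and antigen presenting cells, Cxcl2, Apoe, Cd74, H2-Aa, H2-Ab1 and H2-Eb1. Map1lc3a (0.301-fold, 4 UMIs), Mapre2 (0.307-fold), Pink1 (0.351-fold) and Crbn (0.361-fold, 5 UMIs each) were there too, of neither kind and with few member UMIs. With the same weighting the ratios of Cd74 and the H2 genes turned above 1.

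Among genes of activation, Cd69, an early marker that interferon is also known to raise, stood at 687 against 455 CPM (1.51-fold, 1.30 to 1.75). Nr4a1, which follows T cell receptor signals, stood at 109 against 216 CPM (0.506-fold, 0.339 to 0.728), and Egr1 at 0.693-fold (0.403 to 1.11). Crtam, with 1 UMI, and Ctla4, with 0, were the 2 of 12 activation genes at least 2-fold lower, and none was 2-fold higher. No heat shock or immediate-early gene of 12 reached 2-fold in either direction. Of 5 cell cycle genes 2 were at least 2-fold lower, Stmn1 with 2 member UMIs and Mcm5 with 3, too few to tell from counting noise. Of the precursor-like genes, 0 of 11 were at least 2-fold higher and 1, Ccr7, was at least 2-fold lower with 2 UMIs. Ly6c2, which interferon is known to raise on T cells, stood at 657 against 384 CPM (1.71-fold, 1.46 to 1.99).

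The 15 largest ratios among compared genes, those with at least 250 UMIs, that reached 50 CPM in the members held 4 genes on none of the lists, which interferon is known to induce or which belong to such families: Phf11b at 362 against 53.8 CPM (6.73-fold, 5.41 to 8.29), Phf11c at 6.38-fold, BC094916 at 5.88-fold and Pml, the organizer of nuclear bodies, at 5.62-fold. The other 11 were Isg20, Isg15, Ifit1bl1 (8.91-fold), Trim30d (8.83-fold), Ddx60, Cxcl10, Herc6, Rtp4, Slfn1, Parp9 and Tor3a (5.57-fold).

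Many, not all, of the other interferon-related genes stood higher in cells with more rule UMIs, also below the threshold. Isg15 stood at 139 CPM in the 7203 cells without a rule UMI, 231 with 1 and 371 with 2. It was 679 CPM with 3 to 4, 1496 with 5 to 9 and 3329 with 10 or more (2914 to 3786). The sum of the 90 genes went from 3993 CPM through 5096, 7245, 8883 and 13714 to 26947, 6.75 times the level without a rule UMI (6.44 to 7.06). Across the threshold itself, cells with 3 rule UMIs stood at 542 CPM of Isg15 (392 to 730) and those with 2 at 371 (311 to 439). Isg20 went from 15.5 to 488 CPM and Irf7 from 54.9 to 545. Some genes had no such order. Cxcl10 stood at 188 CPM with 2 rule UMIs, 122 with 3 to 4, 140 with 5 to 9 and 1234 with 10 or more, Igtp at 180 with 2 and 137 with 3 to 4, and Irf1 at 293 and 214 in these bins. Socs1 stood between 133 and 156 CPM in all bins but the last, where it was 330.0. Gzmb had no such order, with 3938 CPM at 3 to 4, 2244 at 5 to 9 and 4175 at 10 or more, and Nr4a1 stood at 99.2, 125 and 115 CPM in these bins against 205 without a rule UMI. H2-K1 went from 2464 to 3028 CPM.

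**Figure D3:**
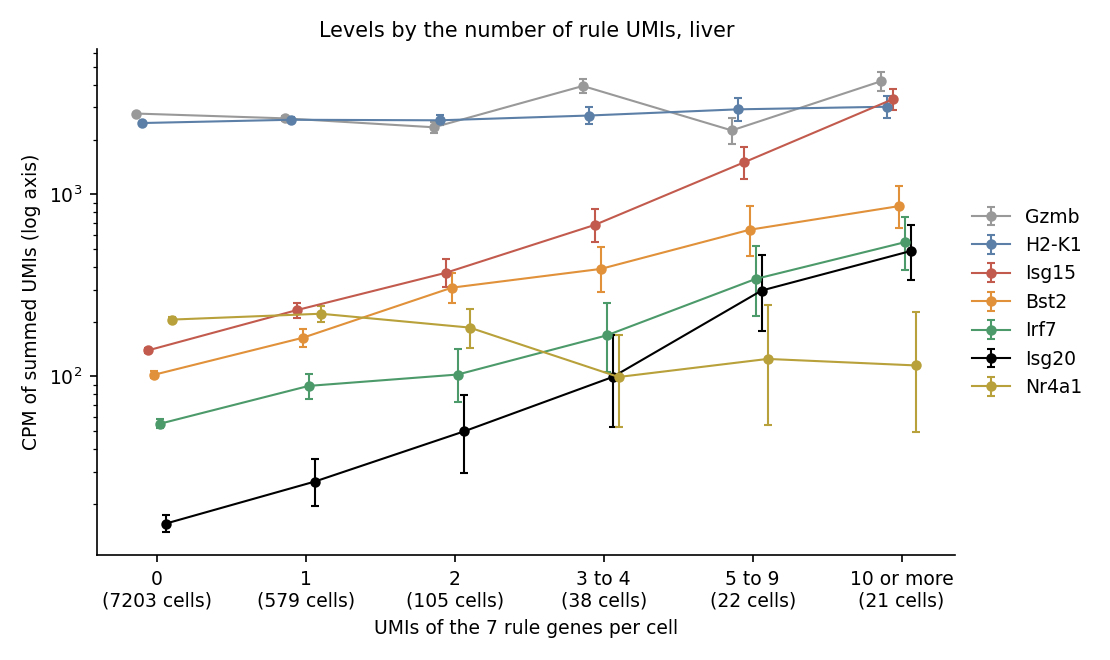
CPM of summed UMIs (log axis) of 7 genes in kept liver cells by the number of UMIs of the 7 rule genes, with exact Poisson 95% intervals and the number of cells of each bin; cells above the limit on macrophage genes are left out. Isg15 goes from 139 to 3329 CPM and Isg20 from 15.5 to 488, while H2-K1 goes from 2464 to 3028.

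The comparison was repeated within classes. In the C4-like class, the class with 26 members, 508 of the 6455 genes were at least 2-fold higher in the members (7.87%), and 50 of the 77 interferon-related genes. Isg15 stood there at 1988 against 208 CPM (9.57-fold, 8.10 to 11.2) and the 90-gene sum at 3.86-fold (3.67 to 4.07). The classes with 10 to 19 members were added after the data were seen. Of the 77 genes, 51 were higher in cluster 2 (background 9.85%), 52 in C3-like (13.6%) and 41 in C5-like cells (background 710 of 6455 genes). The 90-gene sum was 3.45-fold (3.23 to 3.69) in cluster 2, 4.15-fold (3.82 to 4.50) in C3-like and 2.81-fold (2.59 to 3.04) in C5-like cells. Isg15 was 13.8-fold higher in C3-like and 8.36-fold in C5-like members, and in cluster 2 it stood at 2028 against 184 CPM. C5-like and C4-like intervals of the 90-gene ratio do not overlap, but they cover counting error of pooled UMIs and not the spread among cells. Members with 10 or more rule UMIs were 3 of 18 C5-like and 10 of 26 C4-like cells. Whether the classes differ was not tested.

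Single genes varied among the classes. Daxx was 6.55-fold higher in C4-like members (3.85 to 10.5) and 8.14-fold in C3-like (3.96 to 15.1), with 1.09-fold in C5-like members from 2 UMIs (0.131 to 3.98). Cd69 was 2.20-fold higher in both C4-like and C3-like members, with intervals above 1, and 1.29-fold (0.908 to 1.78) in C5-like and 1.04-fold (0.678 to 1.53) in cluster 2. Gzmb stood at 1.44-fold, 1.42-fold and 1.39-fold in C4-like, C5-like and cluster 2 members and 1.08-fold in C3-like. Phf11b was 8.99-fold higher in C4-like and 9.78-fold in cluster 2 members, and 2.55-fold in C5-like. Whether these ratios differ among classes was not tested.

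**Figure D4:**
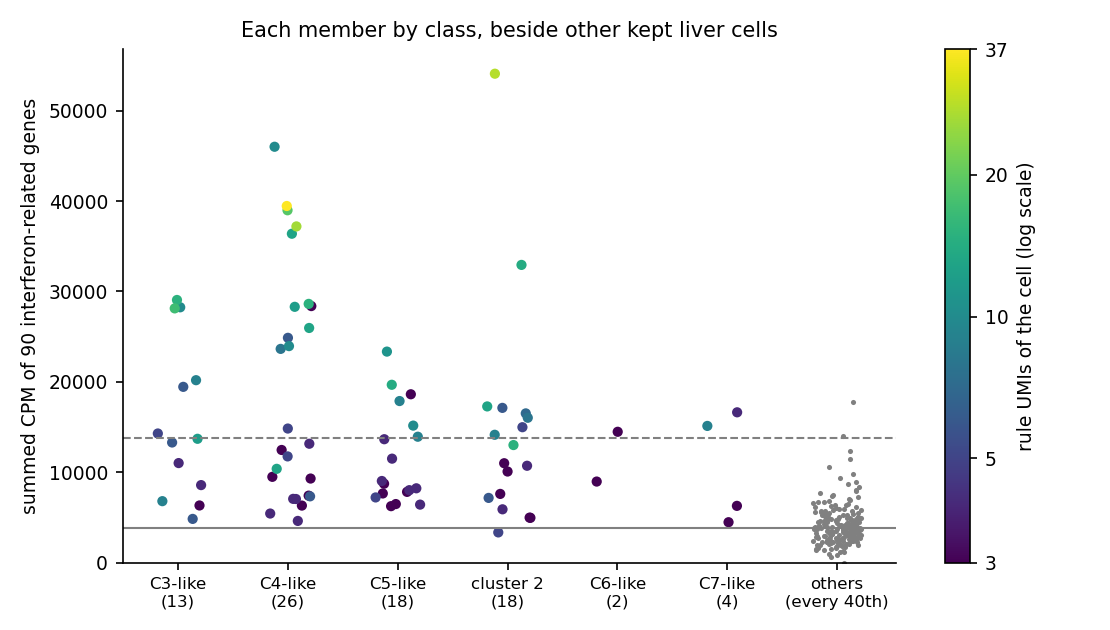
Summed CPM of the 90 interferon-related genes outside the rule in each of the 81 members (points, by class, number of members in brackets; colour, rule UMIs of the cell on a log scale) and in every 40th of the other kept cells, 200 cells (grey); the solid line is the median of all other kept cells (3814) and the dashed line their 99th percentile (13799). C4-like members ran from 4627 to 46001 CPM and C5-like from 6259 to 23350.

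By class, the median of that sum was 14002 CPM in C4-like members, 13709 in C3-like, 12011 in cluster 2, 10712 in C7-like and 8892 in C5-like, and the 2 C6-like members had 8980 and 14483. The highest cell of all, at 54079 CPM, was in cluster 2, as was the lowest, at 3356.

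The same rule found 78 of 4351 thymic cells, 1.79% (1.42% to 2.23%), beside the 1.00% of the liver. The tissues are 1 library each, their depth differed (medians of 3271 and 2741 UMIs per kept cell), and no difference between them was tested. In the thymus 111 of 5869 genes were at least 2-fold higher in these cells (1.89%) and 273 lower (4.65%). Of 62 interferon-related genes compared there, 39 were higher. Isg15 stood at 543 against 39.8 CPM, Irf7 at 313 against 40.6, Bst2 at 557 against 112 and Isg20 at 211 against 23.6. Of 5408 genes compared in both libraries, 109 were at least 2-fold higher in the hepatic and 96 in the thymic cells. These lists shared 49 genes, 45.0% of the hepatic and 51.0% of the thymic list, and 30 of the 49 were on the interferon-related lists. Among the other 19 were Daxx, Gm4955, Ms4a4b, Ms4a6b, Ly6a, Phf11c and Pml. Gzmb, at 0.40 on the log2 scale in the liver, stood at 77.6 against 20.2 CPM in the thymus (3.85-fold, 2.52 to 5.66). Irf8 stood there at 8.31 against 28.1 CPM, from few UMIs among the 360815 of the thymic cells that met the rule.

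**Figure D5:**
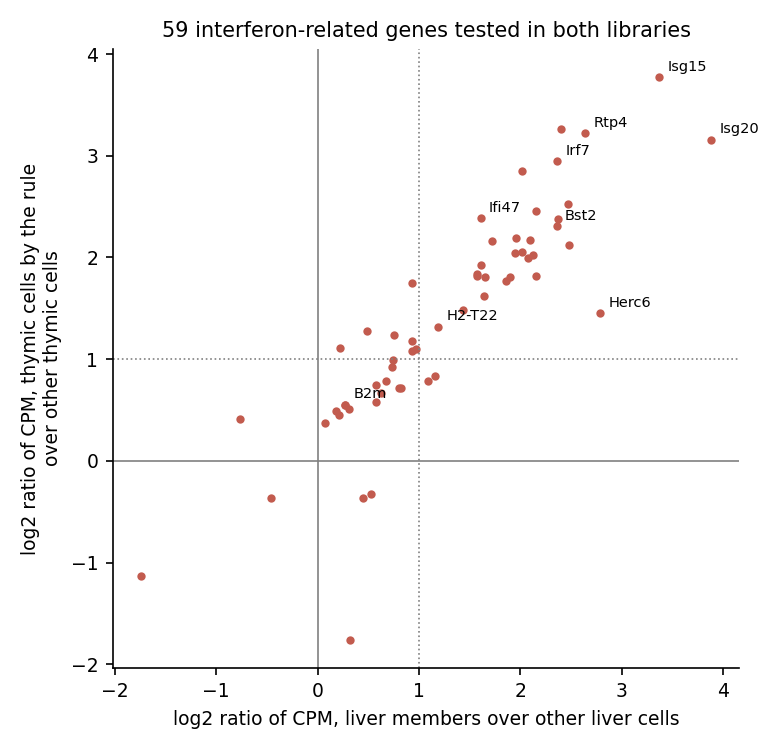
Log2 ratio of CPM between cells that met the rule and the other kept cells of the same library, in the liver (horizontal) and in the thymus (vertical), for 59 interferon-related genes compared in both; dotted lines mark 2-fold. Of these, 53 lie above 0 in both libraries and 30 at or above 1 in both.

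Promoters with ISRE letters were frequent on the interferon-related lists as a whole, genes too low to compare included. Of the 83 listed genes outside the rule with a window, 39 (47.0%) held them. Whether the share goes with being higher in the members was not tested. RefSeq windows were found for 35 of the 47 interferon-related genes that were at least 2-fold higher, and 19 of them (54.3%) held the ISRE letters. Of the 26 with a window among the 30 under 2-fold, 8 (30.8%) held it, as did 3.99% of all 27025 genes with a window. By list, 9 of 10 GTPase windows held them, among them Gbp7 as shown above, 3 of 3 sensor windows and 10 of 20 of the antiviral effectors. On the list of Isg15, its conjugation genes and ubiquitin system genes it was 1 of 8, Isg15 itself. The letters TTCNNNGAA, searched as a GAS and the same on both strands, were in 6 of the 10 GTPase windows and in 9.55% of all genes. Isg20 and Irf7 had windows without the ISRE letters, and Rtp4 and Zbp1 had no entry in the table. Of the 111 genes on no interferon-related list that were at least 2-fold higher and had a window, 11 (9.91%) held the letters. A match is a run of letters and not a measured binding site.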

How the data were processed

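Droplet-based 3′ single-cell libraries (v2 chemistry) were deposited by the authors as raw UMI counts per gene and barcode, 27998 genes with no normalization. Per the labels, Cell Ranger and Seurat 3.0 were used with mm10. The counts of identifiers sharing a symbol were summed. Cells with 800 to 4000 genes and at most 6% mitochondrial UMIs were kept, 8075 of 8658 liver and 4351 of 4541 thymic barcodes, with 24168037 and 17064752 UMIs. Liver cells were clustered in Seurat 5.3.0 under R 4.3.3 (LogNormalize, 2000 variable genes of which the listed interferon-related genes were removed, 30 principal components, resolution 0.6). Classes were named from fixed lists that hold markers named in the study's text and further ones. The cycling and B cell classes are not classes of the study. Scrublet (scanpy 1.11.5) called 1 hepatic and 2 thymic cells and so had not worked, and doublets were kept.

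Levels are CPM of summed counts. Their 95% intervals are exact Poisson for levels, binomial conditional on the summed UMIs for ratios, and Clopper-Pearson for shares. Compared genes had at least 250 UMIs over the kept cells of the library and were no rule, macrophage-limit, mitochondrial or ribosomal-protein genes. A gene was called at 2-fold or 0.5-fold. Named genes were those of the lists, and the 15 highest and 15 lowest ratios among genes reaching 50 CPM in the group that was higher. The lists hold 110 interferon-related genes outside the rule, of which 108 are in the table. Some listed genes are not reported here by name. The members and lists were chosen with earlier results of these data known. Python 3.11.15, numpy 2.4.6, scipy 1.17.1, pandas 2.3.3 and matplotlib 3.10.9 were used, and the ratio code was tested on simulated data. Alternatives changed cell filters, the rule, scaling, the comparison cells, the gene limit and the clustering.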

Additional observations from a re-analysis of the deposited data

Results flagged for a closer look

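Ccr7, the receptor that leads lymphocytes to lymph nodes, moved in opposite directions in the 2 libraries. In the liver it fell by 2.06 on the log2 scale between members and other kept cells, with 2 UMIs in the members (ratio 0.241, 0.0291 to 0.872). In the thymus the log2 ratio was 1.06, with 51 UMIs (2.09-fold, 1.55 to 2.77). The difference was not tested, since each tissue is 1 library.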

How the results depend on the processing

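With 1 library per tissue, 81 cells and 264900 UMIs, genes of a few UMIs cannot be told from counting noise, and neither mice nor libraries are replicated. No paired analysis was possible because each tissue has 1 library. Of the 47 interferon-related genes that were at least 2-fold higher, 42 were so in all 15 settings of cells, rule, scaling and comparison cells, the reported one included, the exceptions being Cd274, Ddx60, H2-T22, Rnf114 and Uba7. Members numbered 186 with at least 2 rule UMIs, 43 with at least 5 and 47 when counted in cells thinned to 1500 UMIs, and thymic cells 149, 37 and 24, and 48 with at least 4. Genes at least 2-fold higher over all genes numbered 86 with 2 rule UMIs, 364 with 5, 359 with the thinned count, 382 with thinned levels, 376 and 42 at limits of 100 and 1000 UMIs per gene and 1023 with 1 UMI in each group. Genes at least 2-fold lower numbered 223, 1173, 1146, 1130, 1247 and 70 for the first 6 of these and 961 with at least 4 rule UMIs. At the limit of 1000 UMIs, 22 interferon-related genes were higher, 25 in C4-like members and 12 in the thymus, against 59 and 76 in the thymus at 100 UMIs and at 1 UMI in each group; fewer or more genes were compared. With at least 4 or 5 rule UMIs, 0% of the members were C6-like. At resolution 0.4 the C4-like class held 53.1% of the members, with no share of the other cells computed. With the interferon-related genes among the variable genes, C3-like, C4-like, C5-like and unnamed cells held 8.64%, 12.3%, 3.70% and 9.88% of the members, 60.5% were in the interferon cluster, and 26 interferon-related genes were higher in C4-like members. The 90-gene ratio of cells with 10 or more rule UMIs to those with 0 was 9.44 with the thinned count. Signs of log2 ratios turned for Il17re (0.16 with 2 rule UMIs), Gbp5 (-0.054 with the thinned count), and, with weighted classes, C1qb (0.91), Cd74 (0.16), H2-Aa (0.66), H2-Ab1 (0.37), H2-Eb1 (0.84) and Il17re (0.67). The cause was not tested.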

Other observations

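Of the 189 genes at least 2-fold higher in the hepatic members, 140 were on none of the lists, and the following were chosen after their values were seen. Ms4a4b, a membrane protein of T cells, stood at 2265 against 797 CPM (2.84-fold, 2.62 to 3.08) and its relative Ms4a6b at 721 against 294 (2.45-fold). Ms4a4b was higher in each of the 4 classes with at least 10 members, from 1.93-fold in C3-like to 2.96-fold in C5-like cells. Plac8 stood at 989 against 321 CPM (3.08-fold, 2.71 to 3.48), with 4.70-fold in C5-like and 1.14-fold in C3-like members (0.623 to 1.93). Ly6a, the Sca-1 antigen, stood at 272 against 98.4 CPM (2.76-fold, 2.15 to 3.49). Of its 72 UMIs, 55 were in C4-like members, for which Ly6a is also among the leading genes of the class, and 0 in C3-like members. In the thymus Ly6a stood at 164 against 50.5 CPM and Ms4a4b at 698 against 168.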
